A study of Oncorhynchus mykiss with 24 samples.

Results

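Livers of rainbow trout (Oncorhynchus mykiss, Mt. Shasta strain, aged 12 to 18 months) that ate a diet with 500 ppm of DIM were set against livers of fish on the vehicle diet. DIM is read here as 3,3'-diindolylmethane, the dimer that indole-3-carbinol (I3C), an indole of cruciferous vegetables, forms in acid. The diet was given for 12 days and livers were taken on day 13, with 2 tanks of 6 fish for each treatment. The series' title presents the agents fed as tumor promoters of trout. The DIM 500 ppm diet is represented by 2 RNA samples, each on 2 arrays with the dyes swapped, and so by 4 of the 24 arrays and 2 of the 12 treated RNA samples of the series. Other diets used here were DIM at 1500 ppm, I3C at 500 ppm and 17β-estradiol (E2) at 5 ppm, and I3C at 1500 ppm and β-naphthoflavone (BNF) at 500 ppm shared in the estimate of the spread. The control was 1 RNA pool, made of equal amounts of liver RNA from 12 fish that ate 0.15% dimethyl sulfoxide, and it was hybridised on all 24 arrays. The labels do not say whether a treated RNA sample came from 1 fish or several, nor from which tank, so each p-value reflects only how far these samples scatter, in part perhaps for technical reasons, and leaves out the scatter of the control.

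DIM is known as a ligand of the aryl hydrocarbon receptor, whose best known targets are the cytochromes P450 of the CYP1 family. In trout liver DIM is also known to act as an estrogen, and the classical estrogen response of fish liver is the synthesis of yolk and egg envelope proteins. The liver makes most proteins of blood plasma, among them protease inhibitors and transport proteins, and holds smaller numbers of stromal, immune and red blood cells. In RNA from whole liver, fewer cells of a type and less RNA per cell cannot be told apart.

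The array held 8736 spots in 48 sub-grids, and adjacent spots were averaged to 4368 spot pairs. In all 49 pairs that carried a gene symbol, both spots were listed with the same sequence record, and all 4368 pairs were described. Those 49 pairs stood for 32 symbols, and the other 4319 pairs are unnamed here. Both spots of a pair correlated, over all pairs, at 0.846 to 0.907 on these 4 arrays, against 0.409 to 0.935 on the other 20 arrays. Ratios carry no level, so the liver label could not be checked against hepatocyte markers. Values are log2 ratios of treated RNA over the vehicle pool after each array was centred on its median, with the dye swap averaged within each RNA sample. They are averaged over 2 RNA samples and given with the standard error (SE) of limma's fit, which pools the spread over the 12 samples. A pair was called when its Benjamini-Hochberg adjusted p, over all 4368 pairs, was under 0.05.

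The sign of these ratios was not settled by the labels, which do not state the numerator. Higher means higher in DIM-fed fish if the ratio was Cy3 over Cy5, the order of the channels in the labels, and higher and lower change places throughout if it was the reverse. Averaging an RNA sample's Cy3 and Cy5 arrays without a sign change cancels a diet effect and keeps the bias between the dyes. This dye component of DIM 500 ppm replicate 1 correlated at a median of -0.74 with those of the samples not turned, while that of DIM 500 ppm replicate 2 correlated at 0.90. Among the other samples only E2 replicate 1 was negative, at -0.81, and the remaining 9 lay between 0.557 and 0.914. The arrays of DIM 500 ppm replicate 1 and of E2 replicate 1 were therefore turned in sign, a choice that used the dye component and not the diet effect. No label says whether these arrays were stored inverted, so each comparison is also given with the signs as deposited. With those signs the 2 DIM 500 ppm samples oppose each other and their means lie near 0.

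**Figure D1:**
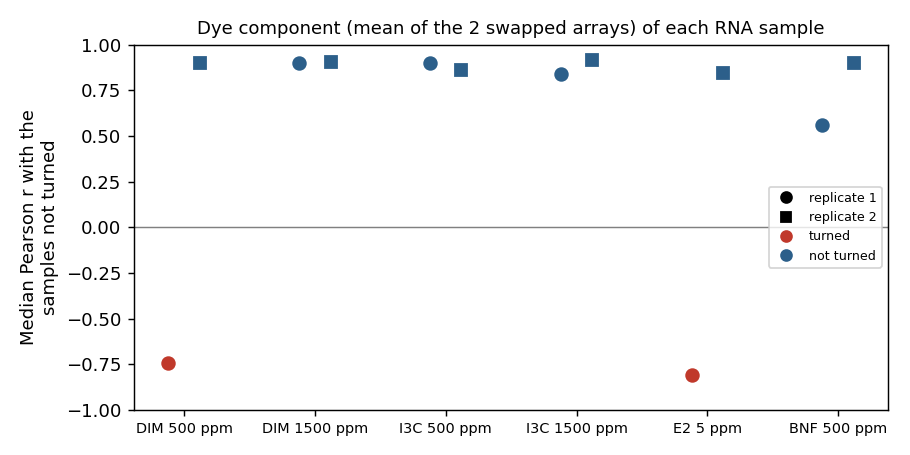
The vertical axis gives the median Pearson correlation, over spot pairs, of each RNA sample's dye component with those of the samples not turned, and the horizontal axis the 6 diets. DIM 500 ppm replicate 1 and E2 replicate 1 (red) lie at -0.74 and -0.81, and all other samples (blue) lie at or above 0.557.

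Against the vehicle pool, 464 of 4368 spot pairs (10.6%) were called in DIM 500 ppm livers, 143 higher (3.27%) and 321 lower (7.35%). The lower calls outnumbered the higher ones although most pairs lay slightly above 0. The median ratio of all pairs was 0.066, and 36.2% of pairs lay below 0. Changes past 1 on the log2 scale were called for 71 higher and 150 lower pairs, and changes past 3 for 6 higher and 6 lower pairs. The remaining 243 called pairs lay within 1 of 0, and the smallest called change was 0.46. The median called change was 0.99 among higher pairs and -0.94 among lower pairs. Over all pairs, the lowest 5% lay below -0.73 and the highest 5% above 0.42.

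The median size of the difference between the 2 DIM 500 ppm samples was 0.167 over all 4368 pairs, and 0.18 among called pairs. Over all pairs, the lower and upper quartiles of the mean log2 ratio were -0.079 and 0.186. The difference was thus not small beside a typical mean. It was smaller in size than the median called changes of 0.99 and -0.94. Pairs were called for a large mean against the scatter, so the selection partly set that comparison. The values of the samples correlated at 0.851 over pairs (Spearman's rho 0.571), and at -0.851 with the signs as deposited. This correlation is across spot pairs, which are not independent, and both samples were read against the same pool. A difference between samples of over 1 was found in 21 pairs, 14 of them called, 7 higher and 7 lower. Of the 464 called pairs, 426 (91.8%) had the same sign on all 4 arrays, as did 868 of all pairs (19.9%). Calls were made from the means of these arrays, so the larger share among them was partly set by the selection. The median 95% interval of a pair reached 0.357 to either side of its mean. With the signs as deposited, limma called 0 pairs, and 4 had an unadjusted p under 0.05, against 801 with the 2 samples turned. Without DIM 500 ppm replicate 1 the count was 261, and without replicate 2 it was 283, in fits that give the single sample left the spread of the other diets.

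**Figure D2:**
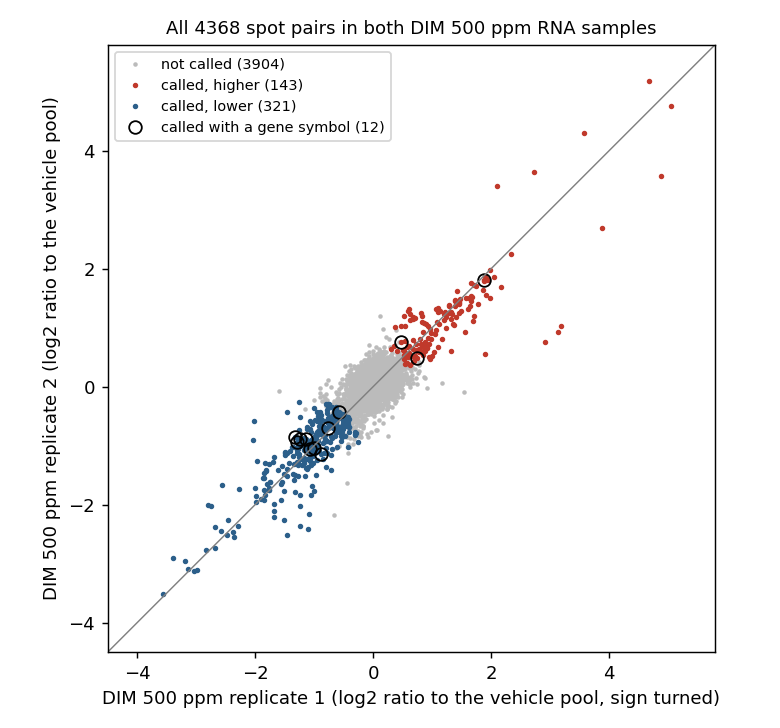
Each point is 1 of 4368 spot pairs, with its log2 ratio to the vehicle pool in DIM 500 ppm replicate 1 (horizontal, sign turned) and replicate 2 (vertical). The 143 higher (red) and 321 lower (blue) calls run along the line of equal values, the 12 called pairs with a gene symbol are circled, and a few called pairs lie over 1 away from the line.

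The largest changes lay in unnamed pairs. Spots 10020301 and 10020302 gave 4.68 and 5.19 in the 2 samples, a mean of 4.93 ± 0.18 (SE, n = 2) or 30.6-fold (limma, adjusted p = 1.9e-10). Spots 12020713 and 12020714 gave 5.04 and 4.76, a mean of 4.90 ± 0.16 (adjusted p = 4.55e-11). The lowest value of these 2 pairs on any of the 4 arrays was 4.49. The strongest fall was that of spots 7040405 and 7040406, with -3.56 and -3.51 in the samples and a mean of -3.53 ± 0.15 (adjusted p = 1.39e-09). Spots 3010407 and 3010408 followed with -3.38 and -2.90, a mean of -3.14 ± 0.26 (adjusted p = 1.28e-06). None of the 49 pairs with a symbol came near these sizes, and the one with the smallest p ranked at 30 among all pairs. Without centring, with arrays scaled alike and without either DIM 500 ppm sample, these 4 pairs remained called in the same direction.

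Of the 49 pairs with a gene symbol, 12 were called, 3 higher and 9 lower, which is 24.5% against 10.6% of all pairs. The symbols are few and were not drawn at random from the array, and several stand for repeated sequences, so this share describes these pairs alone. The 12 pairs belonged to 10 genes, and 22 of the 32 symbols had no called pair. All 12 had the same sign on the 4 arrays. The median of the 49 pairs was 0.0088, and the 37 that were not called lay between -0.42 and 0.36, with no adjusted p under 0.218. Described by their roles, the falls lay in secreted plasma proteins, a chaperone, a collagen, an antioxidant enzyme, a carbonic anhydrase and 1 gene whose function the files do not give, and the rises in a desaturase and in 2 other genes without a stated function.

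Plasma proteins and protease inhibitors were measured on 3 pairs for 2 genes, and all 3 were called lower, against 7.35% of all pairs. Of the 3, 2 were repeats of 1 ambp sequence. Their median was -1.09, against 0.066 over all pairs. ambp encodes the precursor of alpha-1-microglobulin and bikunin, a protease inhibitor that the liver secretes. One ambp pair gave -0.72 and -1.86 on the arrays of replicate 1 with DIM RNA in Cy3 and in Cy5, and -0.60 and -1.26 on those of replicate 2. The samples' means were -1.29 and -0.93, both clearly below 0, and the pair stood at -1.11 ± 0.15 (SE, n = 2; limma, adjusted p = 0.000123), 2.15-fold lower. The other ambp pair, spotted from the same sequence in another sub-grid, stood at -1.09 ± 0.15 (adjusted p = 0.000133) with -1.33 and -0.85 in the samples. antiprot1, whose symbol stands for an antiproteinase, gave -1.32 and -0.95 on the arrays of replicate 1 and -0.54 and -1.25 on those of replicate 2. It stood at -1.01 ± 0.17 (limma, adjusted p = 0.000533). Without replicate 1 it missed the threshold (-0.89, adjusted p = 0.0506).

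Chaperones were measured on 5 pairs for 2 genes, of which 2 pairs were called, both lower and both repeats of 1 hsp90ab1 sequence, against 7.35% of all pairs called lower. The median of the 5 was -0.050. hsp90ab1 encodes the constitutive cytosolic HSP90, which folds kinases and holds unliganded steroid receptors and the aryl hydrocarbon receptor. One of its pairs gave -0.72 and -1.42 on the arrays of replicate 1 and -0.57 and -1.54 on those of replicate 2, a mean of -1.06 ± 0.16 (limma, n = 2, adjusted p = 0.00022). A repeat of the same sequence elsewhere in the sub-grid stood at -1.02 ± 0.15 (adjusted p = 0.000226), with -0.996 and -1.04 in the samples. A pair with another hsp90ab1 sequence did not follow them. It gave 0.07 and 0.25 in the samples and a mean of 0.16 ± 0.19 (adjusted p = 0.796). hspa8, the constitutive HSP70 of the cytosol, stood at 0.30 ± 0.18 and -0.050 ± 0.15 on its 2 pairs, neither called.

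In the extracellular matrix list, 1 of 3 pairs was called, and it was lower, against 7.35% of all pairs called lower. col1a2, a chain of type I collagen made by stromal cells, gave -0.97 and -1.50 on the arrays of replicate 1 and -0.46 and -1.29 on those of replicate 2. Its mean was -1.06 ± 0.15 (limma, n = 2, adjusted p = 0.000181), 2.08-fold lower. Every other diet also had a col1a2 mean below the pool. These means were -1.03 in DIM 1500 ppm, -0.70 in I3C 500 ppm, -0.82 in I3C 1500 ppm, -0.86 in E2 and -0.47 in BNF. The part of the shared pool in these values was not tested. sparc, a glycoprotein that binds collagen, did not share the fall of col1a2 in DIM 500 ppm. Its pairs stood at 0.36 ± 0.16 (adjusted p = 0.218) and 0.15 ± 0.20, with positive values in both samples on each. Both genes are also the stromal markers of the array, so of 3 stromal marker pairs 1 was lower and 2 were above 0. The part of stromal cells in the fall of col1a2 was not tested.

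Red cell markers were measured on 2 pairs, of which 1 was called lower, against 7.35% of all pairs. LOC100135826, listed in the gene table with the carbonic anhydrase synonym CA2, gave -0.76 and -0.69 in the samples, and a mean of -0.73 ± 0.14 (limma, n = 2, adjusted p = 0.00241). Its arrays split by dye, with -0.03 and -0.19 where DIM RNA was in Cy3 and -1.50 and -1.20 where it was in Cy5. LOC100136291, listed with the globin synonym hbb4, gave -0.28 and -0.27 and was not called (adjusted p = 0.363). The call of LOC100135826 was lost without replicate 1 (adjusted p = 0.101) and without replicate 2 (0.0583). The part of red cells in these values was not tested.

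Of 2 pairs in the antioxidant list 1 was called lower, and of 2 in the lipid list 1 was called higher, against 7.35% and 3.27% of all pairs. sod1, the cytosolic superoxide dismutase, was called on 1 of 2 pairs that share the symbol but are listed as different Entrez genes. The called pair gave -0.50 and -0.65 on the arrays of replicate 1 and -0.18 and -0.67 on those of replicate 2. Its mean was -0.50 ± 0.13 (limma, n = 2, adjusted p = 0.0219). Every other diet also had a mean below the pool on this pair, from -0.48 in DIM 1500 ppm to -0.14 in BNF. The part of the shared pool in these values was not tested. The pair of the other gene stood at -0.018 ± 0.22 in DIM 500 ppm. fd6d, a fatty acid desaturase of the synthesis of long polyunsaturated fatty acids, gave 0.75 and 0.49 in the samples and stood at 0.62 ± 0.17 (adjusted p = 0.0281). pparg, a nuclear receptor of lipid storage, gave 0.03 and -0.27 and was not called (adjusted p = 0.893). The calls of sod1 and fd6d rested on both samples. Without replicate 1 their adjusted p was 0.462 and 0.561, and without replicate 2 it was 0.157 and 0.127. Both were also lost without centring (0.296 and 0.203).

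3 called pairs carry symbols without a role in the files. LOC100136761 had the largest change of all pairs with a symbol, at 2.15 and 1.62 on the arrays of replicate 1 and 2.20 and 1.42 on those of replicate 2. Its mean was 1.85 ± 0.16 (limma, n = 2, adjusted p = 1.6e-06), 3.60-fold higher. The other pairs listed under this symbol, each from a sequence of its own, stood at 0.0096 and -0.033. LOC100136258 gave -0.88 and -1.13 in the samples, a mean of -1.01 ± 0.21 (adjusted p = 0.0045), and lost its call without replicate 2 (0.157). gs04 gave 0.48 and 0.76, a mean of 0.62 ± 0.19 with an adjusted p of 0.0469. It lost its call without replicate 1 (0.183), without replicate 2 (0.651), without centring (0.206) and with a replicate block (0.0567).

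**Figure D3:**
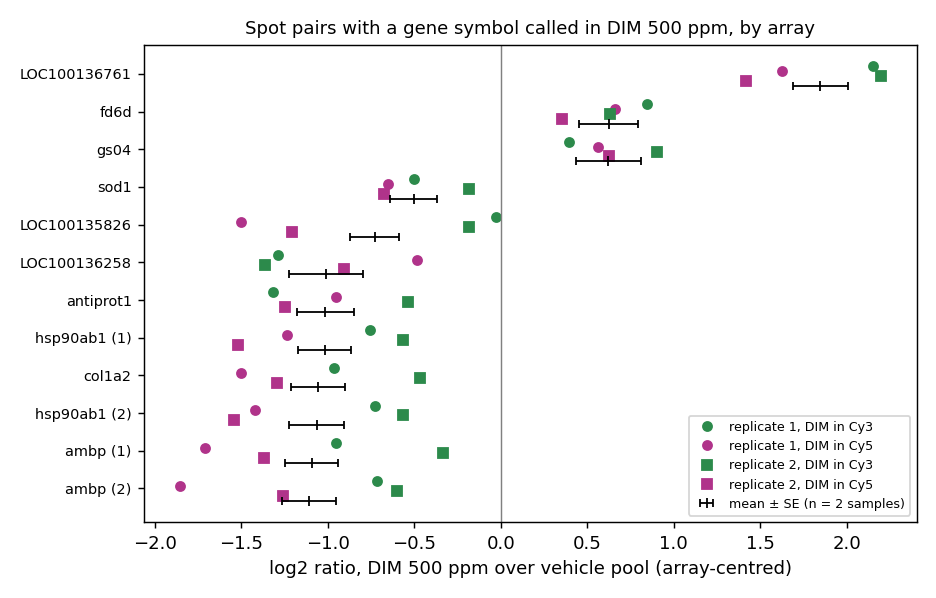
The horizontal axis gives the log2 ratio of DIM 500 ppm over the vehicle pool for the 12 called pairs with a gene symbol, with a point for each of 4 arrays (shape, replicate; colour, dye of the DIM RNA) and the mean ± SE of limma's fit (n = 2 samples); (1) and (2) mark different pairs of 1 symbol. All 4 points of a pair lie on the same side of 0. In 7 of the 9 lower pairs and 1 of the 3 higher pairs both Cy5 arrays lie below both Cy3 arrays. This split was not counted over all pairs.

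Other pathways of interest had few measured members. cyp1a3, the only measured member of the aryl hydrocarbon receptor battery, gave 0.33 and 0.20 in the samples and a mean of 0.26 ± 0.17 (limma, n = 2, adjusted p = 0.528). Its arrays differed in sign by dye, at -0.25 and -0.68 with DIM RNA in Cy3 and 0.90 and 1.08 with it in Cy5. The 95% interval of its mean ran from -0.11 to 0.64. In BNF the pair gave 0.16 and 0.03 in the samples, a mean of 0.098. The means of the other diets ran from 0.057 in E2 to 0.20 in I3C 1500 ppm. Whether this pair can register a response of the receptor was not tested. No gene of the estrogen responsive list and none of the immune list was among the pairs with a symbol. The antigen processing genes tap1 and tapbp, outside the lists, stood at -0.0082 and 0.32, neither called. rps7, a protein of the small ribosomal subunit, stood at 0.10 ± 0.14.

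Where a symbol was spotted more than once, pairs from the same sequence gave nearly equal means. There were 4 such repeats, 2 of LOC100136295 and 1 each of hsp90ab1 and ambp, and the 2 means differed by 0.045 for hsp90ab1, 0.016 for ambp, and 0.046 and 0.11 for the repeats of LOC100136295. Pairs with different sequences for the same gene had ranges of 1.88 in LOC100136761 and 1.22 in hsp90ab1, the 2 genes with a called pair among them. In hspa8, sparc, LOC100136295 and stl3 the ranges were 0.348, 0.216, 0.155 and 0.133, and in LOC100136294, LOC100135948 and LOC100136015 they were 0.073, 0.062 and 0.053.

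The higher dose of the same compound was compared directly, in a difference in which the vehicle pool cancels. Between DIM 500 ppm and DIM 1500 ppm limma called 0 of 4368 pairs (0%), and 54 pairs had an unadjusted p under 0.05. The count does not show equal responses to both doses. The 95% interval was contained between -1 and 1 for 4049 pairs (92.7%), for 424 of the 464 pairs called at 500 ppm and for all 12 called pairs with a symbol. Among those 12, the differences ran from -0.52 for one ambp pair to 0.26 for gs04. LOC100136761 stood at 1.85 in DIM 500 ppm and 1.95 in DIM 1500 ppm, a difference of -0.11 with an interval of -0.59 to 0.38. antiprot1 stood at -1.01 and -1.02, and fd6d at 0.62 and 0.63. The ambp pairs differed by -0.43 and -0.52, at -1.11 and -1.09 in DIM 500 ppm and -0.67 and -0.58 in DIM 1500 ppm (limma, adjusted p = 0.99982 for each). rps7 showed the largest difference among pairs with a symbol, at 0.10 in DIM 500 ppm and 0.71 in DIM 1500 ppm, and was not called. The smallest p belonged to unnamed spots 7020301 and 7020302, at -1.74 and -1.61 in DIM 500 ppm and -3.84 and -2.26 in DIM 1500 ppm. It was followed by spots 2040709 and 2040710, at -1.77 and -1.30 in DIM 500 ppm and -0.57 and -0.95 in DIM 1500 ppm. With the signs as deposited the count was 0 as well, and a fit of the 2 doses alone gave 3 calls.

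I3C at the same dose of 500 ppm differed from DIM in more pairs. limma called 123 of 4368 (2.82%), 40 higher and 83 lower in DIM. DIM had the larger change in all 123, and 18 of them had opposite signs in the 2 diets. The 83 lower pairs had a median of -1.54 in DIM 500 ppm and -0.34 in I3C 500 ppm, and the 40 higher pairs had medians of 1.34 and 0.28 in the same order. LOC100136761 gave 1.89 and 1.81 in the samples of DIM 500 ppm, against 0.88 and 0.71 in those of I3C 500 ppm. The difference was 1.05 ± 0.23 (limma, n = 2 each, adjusted p = 0.019). hsp90ab1 gave -1.07 and -1.05 in DIM 500 ppm against -0.07 and -0.26 in I3C 500 ppm, a difference of -0.90 ± 0.22 (limma, adjusted p = 0.0462), and its repeat differed by -0.90 ± 0.21 (0.0371). For antiprot1, at -1.13 and -0.89 in DIM 500 ppm and -0.19 and -0.12 in I3C 500 ppm, the difference of -0.85 missed the threshold (adjusted p = 0.0792), and its 95% interval ran from -1.36 to -0.35. For col1a2 the difference was -0.36 (interval -0.82 to 0.11), and for LOC100135826 -0.17 (-0.61 to 0.26). The largest falls of DIM 500 ppm were smaller in I3C 500 ppm. Spots 3010407 and 3010408 stood at -3.14 in DIM 500 ppm and -1.32 in I3C 500 ppm (difference -1.82 ± 0.37, limma, adjusted p = 0.0164). Spots 7040405 and 7040406 stood at -3.53 in DIM 500 ppm and -0.65 in I3C 500 ppm (difference -2.89 ± 0.22, limma, adjusted p = 7.98e-06), and spots 4020405 and 4020406 at -3.11 and -0.73 (-2.39 ± 0.21, 2.62e-05). The largest rises were also present in I3C. Spots 10020301 and 10020302 stood at 4.93 in DIM 500 ppm and 4.39 in I3C 500 ppm and were not called different (limma, adjusted p = 0.505). Spots 12020713 and 12020714 stood at 4.90 and 4.09, a difference of 0.81 with an interval of 0.34 to 1.28 (adjusted p = 0.0719). In I3C 1500 ppm, LOC100136761 stood at 1.61 and the 2 hsp90ab1 pairs at -0.51 and -0.52. The spots from 3010407, 7040405 and 4020405 stood there at -2.43, -2.93 and -2.55. DIM 500 ppm was not tested against I3C 1500 ppm, so these differences hold for I3C at 500 ppm only. In E2 the 2 hsp90ab1 pairs stood at -0.74 and -0.77.

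Calls of a difference from I3C varied with the samples kept and with centring. The differences of the called pairs with a symbol moved little when 1 sample was left out, which left its diet with 1. They ran from -0.99 to -0.80 and from -0.98 to -0.81 for the hsp90ab1 pairs, and from 0.97 to 1.14 for LOC100136761. The count was 37 without DIM 500 ppm replicate 1, 47 without DIM replicate 2, 153 without I3C replicate 1 and 49 without I3C replicate 2. Both hsp90ab1 calls were lost without any 1 of the 4 samples, and that of LOC100136761 in 3 of those 4 fits. The hsp90ab1 calls were also lost with a replicate block (adjusted p = 0.0581 and 0.0523), with single spots (0.099 and 0.0927) and without centring, where both differences were -0.46 (0.408 each). Without centring 105 pairs were called, 77.1% of them higher in DIM against 32.5% with centring, while the median of all differences moved to 0.44. With the signs as deposited the count was 0, with 95 pairs at an unadjusted p under 0.05.

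**Figure D4:**
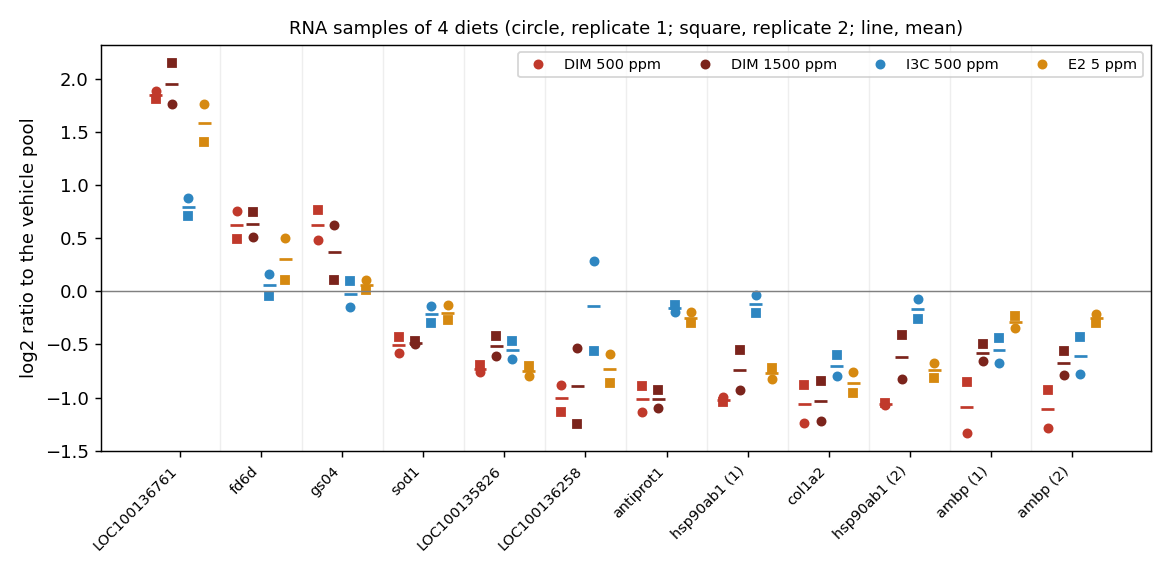
The vertical axis gives the log2 ratio to the vehicle pool for the 12 pairs called in DIM 500 ppm, with both RNA samples of DIM 500 ppm, DIM 1500 ppm, I3C 500 ppm and E2 5 ppm, and lines at the means. The pairs were chosen on DIM 500 ppm, and LOC100136761 lies at 1.81 and 1.89 there against 0.71 and 0.88 in I3C 500 ppm.

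E2 at 5 ppm served as the estrogen of the series. Between DIM 500 ppm and E2, limma called 22 pairs (0.504%), 2 higher and 20 lower in DIM, and all were unnamed. The 20 lower pairs had a median of -2.17 in DIM 500 ppm and -0.64 in E2, and the 2 higher pairs medians of 2.42 and 0.54 in the same order. Spots 2030307 and 2030308 gave -2.80 and -2.01 in DIM 500 ppm, against -0.51 and 0.22 in E2. Their difference was -2.26 ± 0.28 (limma, n = 2 each, adjusted p = 0.0026). Spots 4020405 and 4020406 gave -3.14 and -3.08 in DIM 500 ppm, against -1.66 and -1.32 in E2, a difference of -1.62 ± 0.21 (limma, adjusted p = 0.0026). Both calls were lost without DIM 500 ppm replicate 1 (adjusted p = 0.0731 each) and with arrays scaled alike (0.0856 and 0.132), and the second also without centring (0.141). With both turned samples left out, each of these diets kept 1 sample, and the 2 differences stood at -2.23 and -1.77. Most of the 22 calls were not kept in that fit. The strongest fall of DIM, spots 7040405 and 7040406, stood at -3.53 in DIM 500 ppm and -1.88 in E2, a difference of -1.66 ± 0.22 (limma, adjusted p = 0.0026). In DIM 1500 ppm, spots from 2030307, 4020405 and 7040405 stood at -2.21, -3.24 and -3.36, and in I3C 1500 ppm those from 2030307 stood at -2.48. The highest pair, spots 10020301 and 10020302, stood at 4.93 in DIM 500 ppm and 5.09 in E2. The difference of -0.16 had an interval of -0.71 to 0.39.

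No pair with a symbol was called different from E2, and the smallest adjusted p among them was 0.195, that of ambp. ambp stood at -1.11 and -1.09 on its pairs in DIM 500 ppm, against -0.26 and -0.29 in E2, with differences of -0.85 (95% interval -1.32 to -0.38) and -0.80 (-1.27 to -0.34). antiprot1 stood at -1.01 against -0.25 in E2, a difference of -0.76 (-1.27 to -0.26; limma, adjusted p = 0.438). LOC100136761, col1a2 and LOC100135826 differed from E2 by 0.27, -0.20 and 0.02, with every interval within 1 of 0. The E2 comparison holds both turned samples. It gave 0 calls without DIM 500 ppm replicate 1, 11 without DIM replicate 2, 31 without E2 replicate 1 and 6 without E2 replicate 2. Without centring 5 pairs were called, 40% of them higher in DIM against 9.09% with centring, and the median of all differences moved to 0.34. With the signs as deposited limma called 0, with 65 pairs at an unadjusted p under 0.05.

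**Figure D5:**
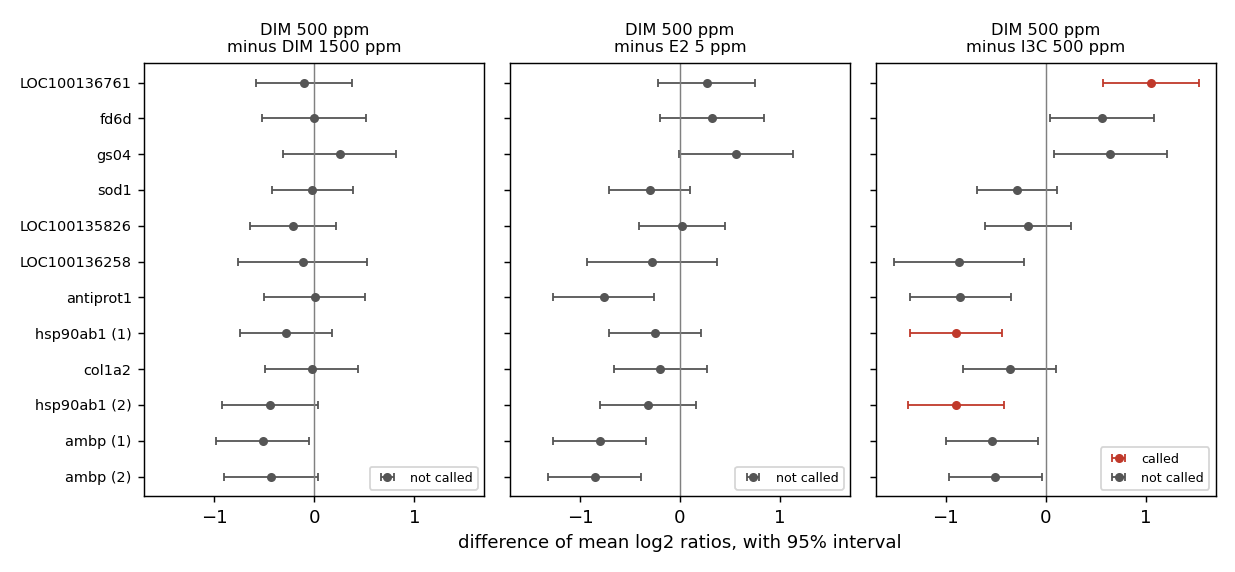
The horizontal axes give the difference of mean log2 ratios, DIM 500 ppm minus each of 3 other diets, with its 95% interval from limma's fit for the 12 called pairs with a symbol. In the panel for I3C 500 ppm LOC100136761 and both called hsp90ab1 pairs (red) pass the test of the difference, while in the panel for DIM 1500 ppm every interval lies within 1 of 0.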

How the data were processed

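Per the labels' protocols, total liver RNA was extracted with TRIzol and RNeasy, labelled with a Genisphere kit and scanned on a ScanArray instrument with QuantArray. For every spot of an array the authors deposited a single value, and 0 were missing. From the values, 23 deposited columns are log ratios, taken as log2 (a natural log would make every change larger), and 1 deposited column, of a BNF array, is a linear ratio, which was converted to log2. Not given in the sources used here were the log base, the direction of the ratio, and how background was corrected and arrays normalised. Intensities were not used here, so dim spots could not be filtered. Deposited medians ran from -0.81 to 1.05.

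Arrays were centred on the median, adjacent spots averaged, (Cy3 minus Cy5)/2 taken per RNA sample, and DIM 500 ppm replicate 1 and E2 replicate 1 turned in sign. All pairs and the 12 samples entered 1 fit of limma 3.58.1 (R 4.3.3), with 1 mean per diet, a pooled spread on 6 residual degrees of freedom and empirical Bayes moderation. It was checked on simulated data with independent noise in each sample. Those data held no error of a shared pool, no dye bias and no inverted arrays, so the check does not cover these. The number of arrays limits the precision. No 2 columns held identical values.

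Symbols came from the platform's annotation, updated through a gene table for assembly USDA_OmykA_1.1 that held 27 of 33 Entrez genes and gave hsp90ab1 for hsp90ba and hspa8 for hsc70a. Pairs with a symbol were all accounted for. Unnamed pairs were named by a rule: the 2 highest and 2 lowest calls with 1 sign on 4 arrays, and the 2 smallest p of each difference between diets. The members, comparisons and gene lists were chosen with earlier results of these data known.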

Additional observations from a re-analysis of the deposited data

Results flagged for a closer look

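DIM 500 ppm and the other diets share the contrast with the vehicle pool, and some spot pairs differed between diets by limma's test of the difference itself. Against I3C 500 ppm these were 123 pairs. They included LOC100136761, higher in DIM by 1.05, both hsp90ab1 pairs of one sequence, lower by -0.90 each (as signed differences), and the unnamed spots from 7040405 and from 4020405, at -2.89 and -2.39. Against E2 they were 22 pairs, among them the unnamed spots from 2030307 and from 4020405, at -2.26 and -1.62. With both turned samples left out, the 4 differences of unnamed pairs remained called, at -2.86 and -2.36 against I3C (adjusted p = 0.000124 and 0.000428) and -2.23 and -1.77 against E2 (0.00467 and 0.0203). LOC100136761 then stood at 1.02 and hsp90ab1 at -0.89 and -0.92, and none of these was called (adjusted p = 0.181, 0.303 and 0.246). With arrays scaled alike, both of these E2 differences lost their calls (limma, adjusted p = 0.0856 and 0.132), and that of spots from 4020405 also without centring (0.141). Without DIM 500 ppm replicate 1 they stood at -1.86 and -1.59. With the signs as deposited limma called 0 pairs in either comparison. Groups of 2 samples were too small to look for a stray sample. In I3C 1500 ppm, which was not tested against DIM 500 ppm, LOC100136761 stood at 1.61 and hsp90ab1 at -0.51 and -0.52. The spots from 7040405, 4020405 and 2030307 stood at -2.93, -2.55 and -2.48 in that diet. In DIM 1500 ppm they stood at -3.36, -3.24 and -2.21 in the same order.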

How the results depend on the processing

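Counts of called pairs are given for DIM 500 ppm against the vehicle pool (464), and for DIM 500 ppm minus DIM 1500 ppm (0), minus E2 (22) and minus I3C 500 ppm (123). With signs as deposited all 4 counts were 0. With both turned samples left out they were 267, 0, 12 and 42, and 261 of the 267 were among the 464. Leaving out 1 sample at a time gave 261 to 283 against the pool, 0 to 31 against E2 and 37 to 153 against I3C, and 0 against DIM 1500 ppm. Only samples of the diets compared were left out in this way. A fit of the diets compared alone gave 860, 3, 19 and 126. Against the pool that fit held only the 2 DIM 500 ppm samples, so the 860 rests on the spread between them alone. Single spots with both spots of a pair called gave 375, 0, 14 and 68, and the fit of 24 arrays gave 553, 0, 35 and 174. Without centring the counts were 333, 0, 5 and 105, and with arrays scaled alike 618, 0, 4 and 180, of which 323 and 454 of the pool's were among the 464. The labels give the diets the same replicate numbers, but no label ties them to a tank or day. Differences between replicates 1 and 2 correlated, over pairs, at -0.25 to 0.27 between DIM 500 ppm and the other diets. Whether equal numbers mark anything shared between diets was not tested. The replicate block gave 442, 0, 22 and 114, with 439 of the 442 among the 464. It ended the calls of gs04 against the pool and of both hsp90ab1 pairs against I3C (adjusted p = 0.0581 and 0.0523). The replicate block ended no other call that was followed through these settings. Those followed were the calls of pairs with a symbol and of the unnamed pairs that the rule picked for the same comparison.

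With signs as deposited, means against the pool turned to 0.18 and 0.24 for ambp, 0.12 for antiprot1, 0.18 for col1a2, -0.13 for fd6d, 0.0090 for one hsp90ab1 pair, 0.034 for LOC100135826, -0.039 for LOC100136761 and 0.074 for sod1. For unnamed pairs they turned to -0.14 (spots from 12020713), 0.24 (3010407) and 0.022 (7040405). The difference from E2 turned to 0.028 for spots from 2030307. Differences from I3C turned to 0.18 and 0.10 for hsp90ab1, -0.83 for LOC100136761, 0.75 for spots from 4020405 and 0.67 for spots from 7040405. These turns follow from the signs of the turned samples by construction; the cause of the other changes was not tested. With the pairs of a symbol averaged, sod1, which joins 2 genes, lost its call (-0.26, adjusted p = 0.45), while LOC100136761 stood at 0.61 and hsp90ab1 at -0.64, both still called (0.00473 and 0.00358). Signal over background is unknown, so values of dim spots cannot be told from those of bright ones.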

Other observations

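Most called pairs had the lower mean on arrays with DIM RNA in Cy5. On arrays with DIM RNA in Cy3 the 143 higher calls had a median of 1.35 and the 321 lower calls a median of -0.71, while on arrays with DIM RNA in Cy5 the medians were 0.83 and -1.21. The mean of the Cy5 arrays was the lower one in 269 of the 321 lower calls and in 112 of the 143 higher calls. The share over all pairs was not counted, so these counts describe the called pairs alone. Some uncalled pairs, such as cyp1a3, lay higher on the Cy5 arrays. Averaging the swap cancels an offset between the dye orientations, and 38 called pairs did not keep 1 sign on all 4 arrays.

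Calls were spread over the slide. Each of 48 sub-grids held 91 pairs and between 4 and 16 calls, with a median of 9.5, and the median log2 ratio of a sub-grid lay between 0.020 and 0.155. The 2 samples had a similar spread over pairs, with an SD of 0.490 in replicate 1 and 0.474 in replicate 2.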
